A study of Mus musculus with 4 samples.

Results

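The genes of the ubiquitin-conjugating (E2) enzymes were examined in lenses of young mice carrying an allele of a hyperactive platelet-derived growth factor receptor β. They were taken as the protein-coding genes of the expression table whose symbol begins with *Ube2*, without *Ube2c*, which gave 36 of the 56748 genes listed and of 21970 protein-coding genes. The symbol also admits *Ube2cbp*, which encodes a protein that binds the E2 Ube2c and is not itself a classical E2, and it leaves out E2 genes with other names, such as *Cdc34*. RNA was sequenced from whole lenses of mice aged 10 to 12 days, in 2 mutant libraries with the genotype *Fsp1-cre;Pdgfrb+/D849V* and 2 control libraries whose genotype is given as *Fsp1-cre;Pdgfrb+/+*. To obtain enough RNA, lenses of several mice were combined for each library, from a line bred onto the FVB/N background and crossed with a *Rosa-LSL-tdTomato* reporter allele. By the study's methods, the control pools also held lenses without the cre transgene, with or without the D849V allele. The D849V allele is under the endogenous *Pdgfrb* promoter and depends on cre driven by the *Fsp1* promoter, which is not specific to the lens. The files used here do not show in which lens cells, or whether by this age, the mutant receptor was expressed. The study reports robust tdTomato reporter activity in the lens epithelium from an age later than that of these mice. It assumes that the mutant receptor is expressed once cre is induced. The sources do not say whether the pools within a group came from separate litters, so the p-values measure only the spread between these libraries. With 2 libraries against 2, an exact two-sided permutation test of a single gene could not go below 0.333.

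A ubiquitin or ubiquitin-like protein is first activated by an E1 enzyme, is then passed to the catalytic cysteine of an E2, and is finally transferred to a substrate, mostly with the help of an E3 ligase. The E2 often decides which chain is built, and so whether the substrate is degraded by the proteasome, sorted or used in signalling. The lens depends on this system while its fibre cells clear their organelles and nuclei, and its long-lived crystallins must be kept soluble by chaperones and degradation.

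The deposited values were FPKM (fragments counted, scaled to gene length and to a denominator of each library). Read numbers could be recovered from them by rounding, 18561682 to 18878768 per library. The denominators were 0.944 to 1.05 times these read totals. Crystallin genes took 58.6 to 62.9% of the reads, and the E2 genes together took 0.115 to 0.125%. The lens epithelial markers summed to 134 to 160 FPKM, and the lens fibre markers were abundant apart from *Lim2*, which was listed at 0 in every library. The libraries also differed in a way that crossed the genotypes. *Xist*, which is expressed from the inactive X chromosome of female cells, was at 7.62 and 13.1 FPKM in the mutant libraries and at 15.6 and 5.56 in the control libraries. Mutant replicate 2 and control replicate 1 therefore formed the higher pair. This pair also had the lower crystallin shares, 58.6 and 59.0% against 62.9 and 61.5% in mutant replicate 1 and control replicate 2. Its sums of the 5 photoreceptor markers were higher, at 2.10 and 0.852 against 0.181 and 0.154 FPKM. Of these markers 3 had a mean under 0.1 FPKM, and not every single marker followed this order. What the pairs reflect was not tested. The sign of the difference between mutant and control lenses was opposite within the 2 pairs for 15 of the 31 E2 genes tested. The share over all genes was not taken, so this count is no result about the E2 genes. Values within each pair are given for some of the members.

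Of the 36 E2 genes, 31 reached a mean of 0.1 FPKM and were tested, 27 had a mean of at least 1 FPKM and 6 of at least 10 FPKM. The 5 genes below the limit were *Ube2t*, the E2 of the Fanconi anaemia pathway, and *Ube2dnl1*, *Ube2dnl2*, *Ube2d2b* and *Ube2u*. *Ube2t* had 5 and 1 reads in the mutant libraries and 7 and 5 in the control libraries. *Ube2dnl2* and *Ube2d2b* had 1 read each, both in mutant replicate 2, and *Ube2dnl1* and *Ube2u* had 0 reads in all libraries. The summed FPKM of the E2 genes was 254.7 and 243.3 in mutant lenses and 227.4 and 239.2 in control lenses. Both mutant libraries thus lay above both controls, but the nearest mutant and control libraries were closer to each other than the control libraries were. Without *Ube2o* the sums were 192.0 and 183.7 in mutant and 177.7 and 184.4 in control lenses, and the groups overlapped.

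**Figure D1:**
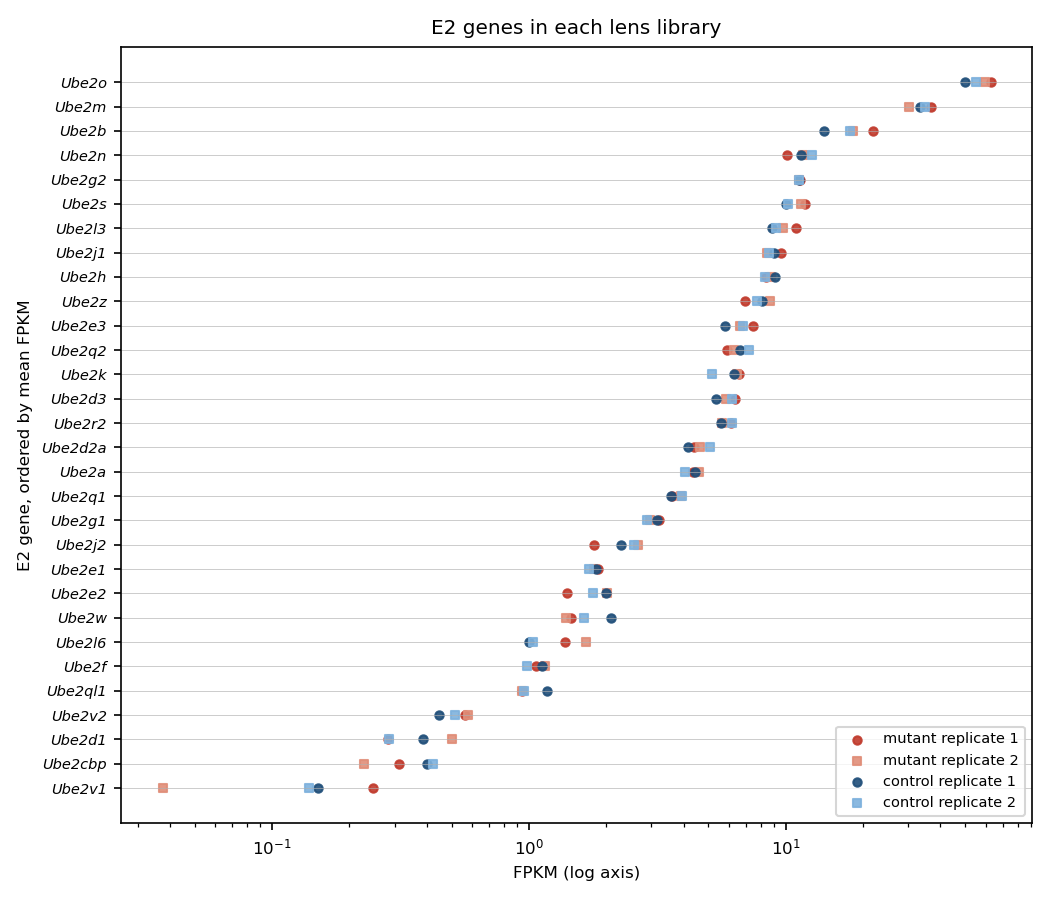
FPKM on a log axis of the tested E2 genes in each of the 4 lens libraries, with 1 member not shown, ordered by mean; red symbols are mutant and blue symbols control libraries. *Ube2o* leads in every library at 49.7 to 62.7 FPKM, and the spread between libraries is widest for *Ube2v1*, which had 2 to 12 reads.

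On the FPKM scale the E2 pool of the lens was led by *Ube2o*, a large enzyme that joins E2 and E3 activity in a single protein. It is known for clearing unassembled proteins, ribosomal ones among them, from maturing red blood cells. *Ube2o* (chromosome 11, 116428566 to 116472273, minus strand, mm39) stood at 62.7 and 59.6 FPKM in the mutant libraries and at 49.7 and 54.8 FPKM in the control libraries, from 5109 to 6173 reads. Its level was higher in both mutant libraries than in both controls, and its mean lay at the 98.7th percentile of protein-coding genes. It alone made up 24.6 and 24.5% of the summed E2 FPKM in mutant and 21.9 and 22.9% in control lenses. The next genes in order were *Ube2m* and *Ube2b*, and the 3 together accounted for 42.6 to 47.5%. The erythroid markers, a cell type in which *Ube2o* is abundant, summed to 25.2 and 17.2 FPKM in mutant and 34.9 and 21.6 FPKM in control lenses. Of these 7 markers 4 had a mean under 0.1 FPKM and 2 were listed at 0, *Hba-a2* among them. These sums overlapped between the groups, and their part in the *Ube2o* values was not tested. In such whole lenses, fewer cells of a type and less RNA per cell cannot be told apart.

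The order of levels depended on the gene length behind the FPKM, since the length listed for a gene was a median 1.31 times that of its longest coding transcript in GENCODE M21. For *Ube2d3*, named after its values were seen, the listed length was 24499 bases against a transcript of 3833 bases. With reads divided by the longest coding transcript its mean went from 5.94 to 38.0 per kilobase, and its place among the E2 genes from 14 to 4. All reads of a gene were kept in this division, also any that fell outside the transcript. Values per kilobase of transcript can therefore be too high. *Ube2d2a*, also named after its values were seen, went from place 17 to 6, at 4.56 and then 21.3 per kilobase. *Ube2s* went from place 6 to 3, at 10.9 and then 45.2 per kilobase. By the mean over all libraries *Ube2o* and *Ube2m* kept the first and second places, at 57.6 and 54.0 per kilobase of transcript. *Ube2o* was the higher only in the mutant libraries, at 63.7 and 60.6 against 58.6 and 48.2. In the control libraries *Ube2m* was the higher, at 53.2 and 55.8 against 50.5 and 55.7. The share of *Ube2o* in the E2 sum went from 23.5 to 14.5%. The ratio of FPKM between libraries is the same for a gene under either length, but the limit of 0.1 FPKM and the added 0.1 are not free of it. *Ube2t*, at a mean of 0.0498 FPKM, was at 0.216 per kilobase of its longest coding transcript.

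**Figure D2:**
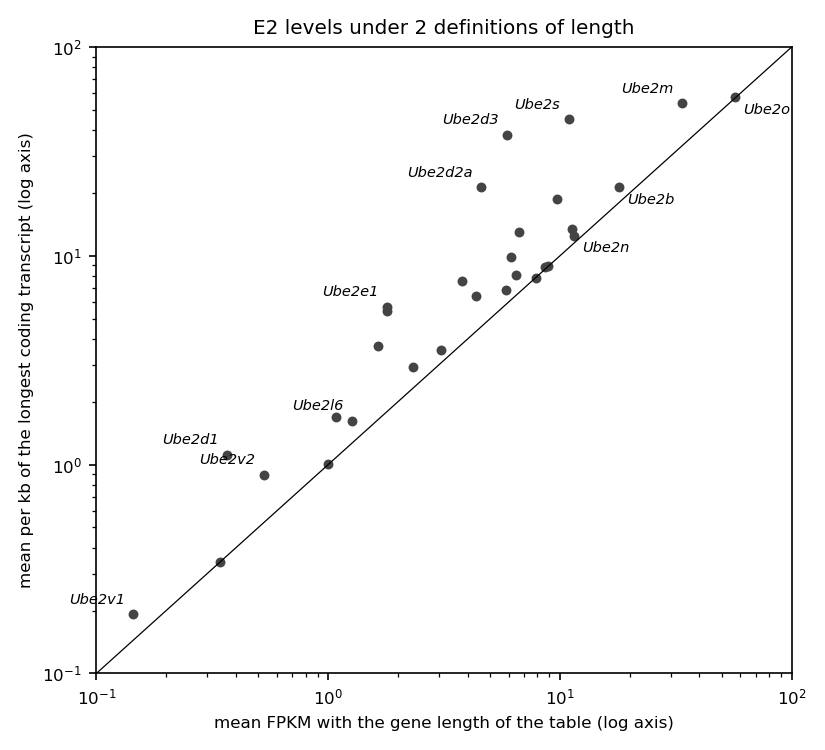
Mean level of the tested E2 genes, with 1 member not shown, per kilobase of the listed gene length (horizontal, log axis) and per kilobase of its longest coding transcript (vertical, log axis), over 4 libraries; the line marks equal values. *Ube2d3* and *Ube2d2a* lie far above the line, at 38.0 and 21.3 per kilobase of transcript, while *Ube2o* lies close to it.

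The comparison of mutant with control lenses asked whether lenses of mice carrying the hyperactive receptor allele had a different E2 repertoire. No E2 gene passed the test. With limma on log2(FPKM + 0.1), 0 of 31 had an adjusted p under 0.05, where 0.0375% of all 15997 genes tested did, and the adjusted p-values of the E2 genes ran from 0.740 to 0.998. With voom on the recovered reads the count was also 0, where 0.0875% of all genes passed. At an unadjusted p under 0.05 limma gave 1 E2 gene higher in the mutant (*Ube2l6*), where 3.39% of all genes were, and 0 lower, where 2.92% were. At the same limit voom gave 2 higher (*Ube2o* and *Ube2b*), against 3.43% of all genes, and 0 lower, against 4% of all genes. With 31 genes tested these counts lay near the background shares, and they are no result about the E2 genes.

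The fold changes were small. Of the 31 genes tested, 18 had a higher and 13 a lower mean in the mutant, and 27 had an absolute log2 fold change under 0.25. The median log2 fold change was 0.03, beside 0.0041 over all genes tested, and the SD of a library's E2 median between replicates was 0.0177. In 8 genes, or 25.8%, both mutant libraries lay above both controls, where 18.2% of all genes did. They included *Ube2l6*, *Ube2b*, *Ube2o*, *Ube2v2*, *Ube2s*, *Ube2l3* and *Ube2k*. In 4 genes, or 12.9%, both mutant libraries lay below both controls, where 18.3% of all genes did, namely *Ube2cbp*, *Ube2w*, *Ube2q2* and *Ube2ql1*. The median absolute log2 difference between replicates over the E2 genes was 0.11 in mutant and 0.14 in control lenses.

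**Figure D3:**
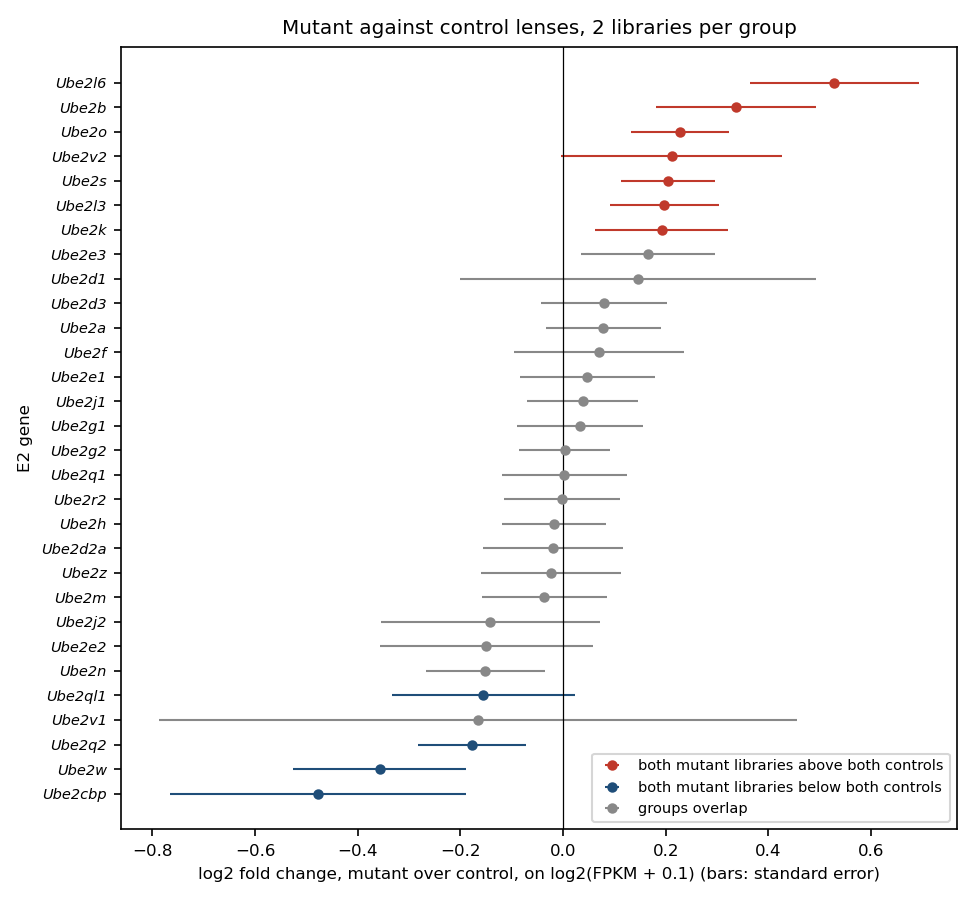
Log2 fold change of the tested E2 genes, mutant over control, with 1 member not shown, on the log2(FPKM + 0.1) scale with its standard error (2 libraries per group). The values run from -0.48 for *Ube2cbp* to 0.53 for *Ube2l6*, and grey marks genes whose groups overlap.

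Among the E2 enzymes of ubiquitin-like modifiers, *Ube2m* and *Ube2f* load the cullin activator NEDD8, *Ube2z* works with FAT10, and *Ube2l6* is the E2 of the interferon-induced modifier ISG15. *Ube2m* was at 36.6 and 30.1 FPKM in mutant lenses and 33.3 and 34.9 FPKM in control lenses. The mutant libraries lay on either side of both controls, and the log2 fold change was -0.04 ± 0.12 (SE, limma adjusted p = 0.961) with a 95% interval of -0.35 to 0.27. It was -0.14 within the higher and 0.07 within the lower *Xist* pair. *Ube2f* was at 1.07 and 1.16 FPKM in mutant and 1.13 and 0.982 FPKM in control lenses, with a log2 fold change of 0.07 ± 0.17 (SE, limma adjusted p = 0.944). *Ube2m* was therefore 26.1 to 35.5 times as high as *Ube2f* in each library on the FPKM scale. *Ube2z* ranged from 6.96 to 8.68 FPKM, and both extremes were mutant libraries. *Ubd*, the gene of FAT10, named after its values were seen, had 0 reads in all libraries.

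*Ube2l6* (chromosome 2, 84629172 to 84640679, plus strand, mm39) had the highest fold change of the E2 genes and was at 1.38 and 1.66 FPKM in mutant lenses and 1.005 and 1.03 FPKM in control lenses. These values rested on 49 and 65 reads in mutant and 39 and 38 reads in control libraries. Both mutant libraries were above both controls, which were close to each other, with means of 1.52 ± 0.202 and 1.02 ± 0.0198 (SD, n = 2 each). The log2 fold change was 0.53 ± 0.16 (SE), with an unadjusted p of 0.0232 and an adjusted p of 0.740 in limma, and with voom the unadjusted p was 0.0827. Leaving out each library in turn gave 0.40 to 0.66, and within the higher and lower *Xist* pairs the difference was 0.67 and 0.38. Of the 31-base words in its annotated transcripts, 15.5% also occurred in transcripts of another gene. The 7 macrophage markers had sums of 1.73 and 1.92 FPKM in mutant and 0.788 and 0.583 FPKM in control lenses. Of these, *C1qa*, *Cd68*, *C1qb* and *Csf1r* were higher in both mutant libraries, and the groups of the other 3 overlapped. Of the 7 markers 4 had a mean under 0.1 FPKM and none was at 0 in every library, and their part in the *Ube2l6* values was not tested. The modifier itself, *Isg15*, named after its values were seen, was at 1.76 and 0.727 FPKM in mutant and 1.17 and 0.463 in control lenses. Its groups overlapped, and its values rested on 6 to 22 reads.

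*Ube2a* and *Ube2b* are close paralogues, both counterparts of yeast Rad6, that ubiquitinate histone H2B and, with Rad18, the replication clamp PCNA. *Ube2b* (chromosome 11, 51876324 to 51891589, minus strand, mm39) was at 21.8 and 18.3 FPKM in mutant lenses and 14.03 and 17.8 FPKM in control lenses, from 580 to 825 reads. The nearest libraries of the groups, mutant replicate 2 and control replicate 2, were only slightly apart. The log2 fold change was 0.34 ± 0.16 (SE), with an unadjusted p of 0.0824 and an adjusted p of 0.809 in limma. With voom the unadjusted p was 0.0173 and the adjusted p 0.561. Without each library in turn the fold change ran from 0.17 to 0.51 on the log2 scale. The X-linked *Ube2a* was at 4.36 and 4.61 FPKM in mutant and 4.42 and 4.07 FPKM in control lenses, and its groups overlapped (log2 fold change 0.08 ± 0.11 SE, limma adjusted p = 0.892). *Ube2b* exceeded *Ube2a* by 3.18 to 4.996 times in each library, and no transcript word of either gene was shared with another gene.

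For *Ube2o* itself the log2 fold change was 0.23 ± 0.09 (SE), from means of 61.2 ± 2.17 and 52.3 ± 3.65 FPKM (SD, n = 2 each). The limma p was 0.0602 and the adjusted p 0.806, and the voom p was 0.0317 with an adjusted p of 0.618. The fold change corresponded to 1.17 times the control level, with a 95% interval of 0.990 to 1.38. It was 0.26 within the higher and 0.19 within the lower *Xist* pair on the log2 scale. *Ube2o* shared no transcript word with another gene.

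Lys63-linked chains, which serve DNA repair and inflammatory signalling rather than degradation, are built by *Ube2n* together with an inactive E2 variant, *Ube2v1* or *Ube2v2*. *Ube2n* (chromosome 10, 95351007 to 95381519, plus strand, mm39) was at 10.1 and 11.6 FPKM in mutant lenses and 11.5 and 12.6 FPKM in control lenses. Mutant replicate 1 was the lowest of the libraries, and the log2 fold change was -0.15 ± 0.12 (SE, limma adjusted p = 0.810). It was 0.02 within the higher and -0.32 within the lower *Xist* pair, and -0.05 without mutant replicate 1. *Ube2n* has processed copies elsewhere in the genome. The pseudogene *Ube2n-ps1* (chromosome 5, 76380459 to 76380917, minus strand, mm39) is 459 bases long and identical to bases 64 to 522 of the 3867-base *Ube2n* transcript in GENCODE M21, whereas the 456 bases of *Ube2nl* on chromosome 7 differ from it at 14 positions. The same 90 bases of each, positions 97 to 186 of the *Ube2n* transcript, are shown because a read inside them fits the gene and the pseudogene equally well; capitals mark the 5 bases that differ in *Ube2nl*.
Ube2n: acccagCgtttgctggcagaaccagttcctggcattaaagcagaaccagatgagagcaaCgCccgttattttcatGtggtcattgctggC
Ube2n-ps1: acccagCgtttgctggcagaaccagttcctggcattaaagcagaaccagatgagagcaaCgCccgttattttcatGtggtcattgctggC
Ube2nl: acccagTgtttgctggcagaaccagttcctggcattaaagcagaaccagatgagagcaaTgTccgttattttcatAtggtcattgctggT

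*Ube2n-ps1*, named after its values were seen, held 181 and 20 reads in the mutant libraries and 21 and 12 in the control libraries. Mutant replicate 1 thus stood far above the other libraries for the pseudogene, and it was the lowest for *Ube2n*, with 759 reads against 961 in mutant replicate 2 and 944 and 981 in the controls. *Ube2nl* had 6 reads in mutant replicate 1 and 0 in the others. The part of shared sequence in these values was not tested on the reads. The reads of all 3 together were 946 and 981 in mutant and 965 and 993 in control lenses. With this sum in place of *Ube2n*, an alternative chosen after the data were seen, the log2 fold change was -0.0039 ± 0.10 (SE, limma adjusted p = 0.997).

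**Figure D4:**
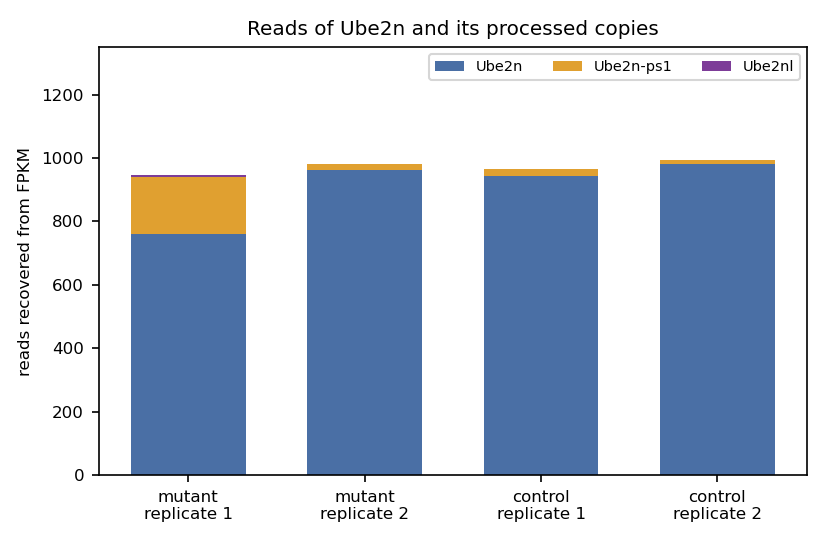
Reads recovered from FPKM for *Ube2n* and its copies *Ube2n-ps1* and *Ube2nl*, stacked for each of the 4 lens libraries. Mutant replicate 1 has 181 reads on *Ube2n-ps1* against 12 to 21 in the other libraries, while the stacked totals lie between 946 and 993.

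The partners of *Ube2n* were much lower. *Ube2v2* was at 0.566 and 0.580 FPKM in mutant and 0.447 and 0.517 FPKM in control lenses, with both mutant libraries above the controls (log2 fold change 0.21 ± 0.22 SE, limma adjusted p = 0.837). Without control replicate 1 the value was 0.12. *Ube2v1* had 12 and 2 reads in mutant and 8 and 7 reads in control libraries, and its log2 fold change of -0.17 ± 0.62 (SE, limma adjusted p = 0.965) turned to 0.50 without mutant replicate 2. Its 95% interval ran from -1.75 to 1.42. Of its transcript words 66.2% were shared with other genes, 58.7% with the overlapping gene *Gm20431* alone, so its level is uncertain. *Gm20431*, named after its values were seen, had 1 read in mutant replicate 2 and 0 in the other libraries.

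The builders of degradative Lys48 and Lys11 chains were *Ube2k*, *Ube2r2*, *Ube2g1* and *Ube2s*, the last of which extends Lys11 chains for the anaphase-promoting complex. *Ube2s* (chromosome 7) was at 11.9 and 11.4 FPKM in mutant and 9.99 and 10.2 FPKM in control lenses. Its groups were apart and its replicates close, and its log2 fold change was 0.20 ± 0.09 (SE), with an unadjusted p of 0.0742 and an adjusted p of 0.809 in limma. *Ube2k* was at 6.57 and 6.48 FPKM in mutant and 6.28 and 5.18 FPKM in control lenses, a log2 difference of 0.05 within the higher and 0.34 within the lower *Xist* pair. *Ube2r2* (5.57 to 6.19 FPKM) and *Ube2g1* (2.89 to 3.21 FPKM) had overlapping groups. *Ube2c*, which starts the chains that *Ube2s* extends and which lies outside the symbols counted here, was at 1.10 and 1.24 FPKM in mutant and 0.850 and 0.605 FPKM in control lenses. Its log2 fold change was 0.63 ± 0.22 (SE), with an unadjusted p of 0.0320 and an adjusted p of 0.769 in limma, and it rested on 29 to 63 reads. The 5 proliferation markers summed to 3.81 and 4.05 FPKM in mutant and 4.43 and 3.90 FPKM in control lenses. These sums overlapped between the groups, and single markers differed in both directions. Their part in the *Ube2c* values was not tested.

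The endoplasmic reticulum E2 enzymes, *Ube2g2*, *Ube2j1* and *Ube2j2*, remove misfolded membrane and secretory proteins. *Ube2g2* was the most even of the abundant members, at 11.4 and 11.2 FPKM in mutant and 11.3 and 11.2 FPKM in control lenses. Its log2 fold change was 0.0032 with a 95% interval of -0.22 to 0.23. *Ube2j1* (9.60 and 8.48 FPKM in mutant, 8.96 and 8.61 FPKM in control lenses) also overlapped between the groups, and *Ube2j2* ranged from 1.79 to 2.65 FPKM, with both extremes in mutant libraries.

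The enzymes with broad E3 partners comprise the *Ube2d* and *Ube2e* families, *Ube2l3*, which serves RING-between-RING and HECT ligases such as parkin, and *Ube2w*, which attaches ubiquitin to the amino terminus of its substrates. *Ube2l3* was at 10.96 and 9.74 FPKM in mutant and 8.85 and 9.15 FPKM in control lenses (log2 fold change 0.20 ± 0.11 SE, limma adjusted p = 0.810), and without mutant replicate 1 the value was 0.11. Both mutant libraries were the higher ones, and 32.9% of the *Ube2l3* transcript words were shared with other genes, mostly its neighbour *Ydjc*. *Ube2w* was at 1.46 and 1.39 FPKM in mutant and 2.09 and 1.64 FPKM in control lenses. Both mutant libraries were below the controls. The log2 fold change was -0.36 ± 0.17 (SE), with an unadjusted p of 0.0865 and an adjusted p of 0.809 in limma, and it was -0.56 within the higher and -0.16 within the lower *Xist* pair, and -0.19 without control replicate 1. In the *Ube2e* family *Ube2e3* led at 5.78 to 7.45 FPKM, ahead of *Ube2e1* and *Ube2e2* at 1.41 to 2.02 FPKM. *Ube2d1* had 22 to 43 reads, against 2552 to 2801 for *Ube2d3* and 908 to 1079 for *Ube2d2a*. The groups overlapped in all 6 of these genes. Of the 8 tested genes with broad partners, 5 had a higher and 3 a lower mean in the mutant, with a median log2 fold change of 0.06, beside 0.0041 over all genes.

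The remaining members, *Ube2h*, *Ube2q1*, *Ube2q2*, *Ube2ql1* and *Ube2cbp*, are less well characterised, apart from *Ube2h*, the E2 of the CTLH ligase. *Ube2q2* was at 5.90 and 6.26 FPKM in mutant and 6.62 and 7.17 FPKM in control lenses (log2 fold change -0.18 ± 0.11 SE, limma adjusted p = 0.810). *Ube2ql1* was at 0.944 and 0.936 FPKM in mutant and 1.17 and 0.953 FPKM in control lenses (log2 fold change -0.16 ± 0.18 SE, limma adjusted p = 0.859). Without control replicate 1 the value for *Ube2ql1* was -0.019. *Ube2cbp* rested on 10 and 8 reads in mutant and 14 and 14 reads in control lenses, with a log2 fold change of -0.48 ± 0.29 (SE, limma adjusted p = 0.810). In all 3 genes both mutant libraries lay below both controls, only just so for *Ube2ql1*. *Ube2q1* was at 3.56 to 3.96 FPKM and *Ube2h* at 8.31 to 9.05 FPKM, both with overlapping groups, and for *Ube2h* 50.8% of the transcript words were shared with another gene.

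**Figure D5:**
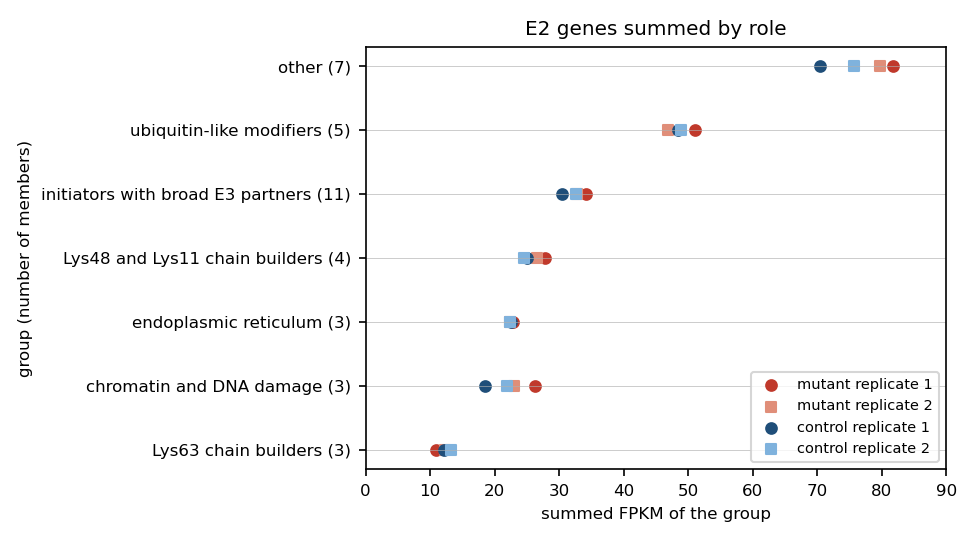
Summed FPKM of the E2 genes by role, with the number of members in parentheses, in each of the 4 lens libraries. The group of other members, led by *Ube2o*, holds 31.9% of the mean E2 sum, and the chromatin and DNA damage group, led by *Ube2b*, ranges from 18.5 to 26.2 FPKM. These shares and the order of the groups depend on the listed gene length. Per kilobase of the longest coding transcript, the share of *Ube2o* was 14.5% instead of 23.5%, and that of *Ube2d3*, a gene with broad E3 partners, was 9.54% instead of 2.46%.

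The rest of the pathway was read from lists of E1 enzymes, modifiers, E3 ligases, deconjugating enzymes and E2-like genes outside the symbols counted here. No gene in them passed an adjusted p of 0.05 with limma or voom. Over all 15997 genes tested, 8117 had a higher and 7880 a lower mean. At an unadjusted p under 0.05 in limma, 3.39% of all genes were higher and 2.92% lower. The lists are short, and their counts are no result about the pathway. Of 9 tested E1 genes, 6 had a higher and 3 a lower mean in the mutant, and 1 had an unadjusted p under 0.05 in limma. This was *Nae1*, a subunit of the enzyme that activates NEDD8 before it is passed to *Ube2m* and *Ube2f*, at 1.65 and 1.53 FPKM in mutant and 1.16 and 1.20 FPKM in control lenses (log2 fold change 0.40 ± 0.14 SE, limma adjusted p = 0.781). The most abundant E1 gene, *Uba1*, which charges most ubiquitin E2 enzymes, was at 36.6 and 36.1 FPKM in mutant and 33.8 and 35.9 FPKM in control lenses. *Sae1*, a subunit of the SUMO-activating enzyme, was at 12.7 and 12.1 FPKM in mutant and 12.7 and 13.03 FPKM in control lenses. Of the 9 tested E2-like genes, *Ube2c* included, 6 had a higher and 3 a lower mean, and of the 8 others 5 were higher and 3 lower. The most abundant were *Cdc34*, a Lys48 chain builder for cullin ligases, and *Tsg101*, an E2-like sorting protein. *Cdc34* was at 40.0 and 35.4 FPKM in mutant and 35.2 and 32.3 FPKM in control lenses, a level close to that of *Ube2m* on the FPKM scale. *Tsg101* was at 35.1 and 33.4 FPKM in mutant and 28.6 and 31.7 FPKM in control lenses.

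Of 12 tested modifier genes, 9 had a higher and 3 a lower mean in the mutant, and none had an unadjusted limma p under 0.05. *Ubb*, a polyubiquitin gene, was at 370 and 335 FPKM in mutant and 315 and 339 FPKM in control lenses, with overlapping groups. *Fau*, which encodes a ubiquitin-like protein fused to a ribosomal protein, was at 186 and 183 FPKM in mutant and 177 and 163 FPKM in control lenses. Of 40 tested E3 genes, 17 had a higher and 23 a lower mean, and the single gene at an unadjusted p under 0.05 was *Rmnd5a*, a subunit of the CTLH ligase that works with *Ube2h*. *Rmnd5a* was at 6.41 and 6.56 FPKM in mutant and 7.79 and 8.23 FPKM in control lenses (log2 fold change -0.30 ± 0.10 SE, limma adjusted p = 0.763), whereas the groups of *Ube2h* overlapped. The most abundant E3 genes, *Rnf7* and *Stub1*, also had overlapping groups. *Rnf7* was at 42.7 and 46.3 FPKM in mutant and 43.99 and 42.9 FPKM in control lenses. *Stub1* was at 24.4 and 24.3 FPKM in mutant and 23.9 and 26.1 FPKM in control lenses. Of 23 deconjugating genes, 13 had a higher and 10 a lower mean, and 3 had an unadjusted limma p under 0.05. Of all genes tested, 3.39% were higher and 2.92% lower at that p. *Uchl1*, a ubiquitin hydrolase abundant in neurons, was at 365 and 351 FPKM in mutant and 289 and 306 FPKM in control lenses (log2 fold change 0.27 ± 0.09 SE, limma adjusted p = 0.781). *Cops5*, the subunit of the COP9 signalosome that removes NEDD8 from cullins, was at 26.1 and 24.8 FPKM in mutant and 20.8 and 21.6 FPKM in control lenses, with a log2 fold change of 0.26 ± 0.09 (SE, limma adjusted p = 0.769). *Usp5*, which disassembles free ubiquitin chains, was at 10.2 and 10.6 FPKM in mutant and 12.8 and 12.3 FPKM in control lenses, with a log2 fold change of -0.27 ± 0.09 (SE, limma adjusted p = 0.769).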

How the data were processed

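RNA of 4 pooled lens libraries, 2 mutant and 2 control, was analysed from the FPKM deposited by the authors for every gene. Before deposit, reads were aligned with HISAT2 and counted with featureCounts by the sequencing provider, per the labels on build mm39; counting options were not given in the sources used here. Dividing out gene length and each library's step returned whole reads for 100% of the values checked, which left out the largest (tolerance 0.001 of the read number). The tolerance grows with the read number, so the check cannot decide for abundant genes, whose read numbers were rounded. For genes with few reads the counting error is that of the reads printed.

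FPKM were rescaled by median ratios, which were 1.006 in every library, so ratios between libraries did not change. The 15997 genes with a mean of at least 0.1 FPKM entered limma 3.58.1 (R 4.3.3, trend, no covariate) on log2(FPKM + 0.1). Benjamini-Hochberg adjustment was over all of them. The log2(FPKM + 0.1) scale understates fold changes of low genes. The comparison was run on simulated reads whose changes were larger than any seen in the E2 genes. Its power for changes as small as theirs was not measured. It was also repeated with voom on the recovered reads. Shared sequence was measured as 31-base words in GENCODE M21 transcripts (GRCm38), whose coordinates were not used.

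The E2 genes, pathway lists and markers were chosen with earlier results of these data known. Values per library were given for the 5 most abundant members, the 5 with the smallest p in each direction, *Ube2a*, *Ube2b*, *Ube2n*, *Ube2v1*, *Ube2v2*, *Ube2m*, *Ube2f* and *Ube2l6*, and in each pathway list for genes with p under 0.05 and the most abundant; other members appear as examples of their role. *Ube2q2l* had no entry under that symbol. Replicate numbers were not used as pairs. The values of 1 member, and of 1 marker, are not reported here; they stay in the counts and sums.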

Additional observations from a re-analysis of the deposited data

How the results depend on the processing

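No E2 gene and no gene of the pathway lists passed an adjusted p of 0.05 under any of the alternatives run. The number of E2 genes higher in the mutant at an unadjusted p under 0.05, 1 as reported, was 3 without a filter on low values (3.04% of all genes in that fit), 0 with scaling to library totals (2.49%), 2 with voom (3.43%), 2 with protein-coding genes only (3.95%) and 3 with an *Xist* term (3.72%). It was 0 among the 15 tested members with under 5% shared words, which leave out *Ube2l6*, an alternative chosen after seeing the data. The median log2 fold change of the E2 genes was 0.0022 with scaling to library totals. Leaving out 1 library at a time gave 0 to 2 genes higher and 0 to 1 lower at that p, 18 to 25 genes without overlap, where 64.9 to 71.2% of all genes had none, and medians of 0.0057 to 0.062. The share of *Ube2o* in the E2 sum was 14.5% with the longest transcript as length. Of 16 named members, 12 kept their direction throughout. With 1 library left out at a time, the log2 fold change ran from -0.18 to 0.10 for *Ube2m* (positive without mutant replicate 2), -0.83 to 0.50 for *Ube2v1* (positive without mutant replicate 2), -0.022 to 0.16 for *Ube2f* (negative without control replicate 2) and -0.0066 to 0.013 for *Ube2g2* (negative without mutant replicate 1). That of *Ube2g2* was also -0.028 with library totals and -0.00021 with crystallins left out of the scaling. The cause was not tested.

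With the replicate block, 0 E2 genes passed, 1 was higher at an unadjusted p under 0.05 and the median was 0.03. Deviations of libraries sharing a number correlated at -0.0051, and those of crossed numbers at 0.0051, which 2 libraries per group force to be opposite. This check cannot decide whether the libraries were paired. Members with a mean under about 50 reads, such as *Ube2v1*, *Ube2cbp* and *Ube2l6* (mean 47.75), are limited by counting error.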

Other observations

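Among the modifiers that E2 enzymes carry, single libraries stood out, and these genes were named after their values were seen. *Sumo2*, a ubiquitin-like modifier, was at 7.30 and 2.38 FPKM in mutant lenses and 1.51 and 6.09 FPKM in control lenses. The high libraries were mutant replicate 1 and control replicate 2, the pair with the lower *Xist*. *Rps27a*, a gene of a ubiquitin fused to a ribosomal protein, was at 46.6 and 77.8 FPKM in mutant and 44.6 and 38.8 FPKM in control lenses, so that mutant replicate 2 stood alone. Its log2 fold change was 0.53 ± 0.25 (SE), with an adjusted p of 0.810 in limma and 0.288 in voom, and 0.16 to 0.90 when each library was left out.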
